A study of Mus musculus with 9 samples.

Results

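Transcripts of 10 integrin chains were followed in invariant natural killer T cells of the type called iNKT1, isolated from thymus, liver and spleen. The chains were Itgae, Itga1, Itgb7, Itgb1, Itgal, Itgb2, Itga4, Itgb3, Itgav and Itga6. They were listed by symbol and were 10 of the 14004 genes in the table and 10 of its 22 integrin chains. Each symbol matched 1 Ensembl gene identifier, and each of the 10 chains passed the filter on low values. Such T cells recognise lipids presented by CD1d through a receptor with an almost fixed alpha chain, and the iNKT1 type depends on T-bet, the product of Tbx21.

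Each tissue gave 3 libraries, numbered as replicates, so that 9 libraries entered each comparison. All groups came from C57BL/6 mice of the genotype Tbx21CreTg;Rosa26-LSL-YFP+/+ and received no treatment. In such mice Cre is expressed under control of Tbx21 sequences and removes the stop in front of a YFP reporter, so that cells with a history of Tbx21 expression are marked. All 3 groups carry the transgene and the reporter. Age, sex, the way the cells were selected and the number of mice behind a library are not given in the sources used here. Where nothing says that libraries came from separate mice, p-values measure only the spread between these libraries.

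Integrins are cell surface receptors made of 1 alpha and 1 beta chain, and a chain reaches the surface only with a partner. On T cells, αL with β2 forms LFA-1, which binds ICAM-1 on other cells, and α4 with β1 or β7 binds VCAM-1 and MAdCAM-1 on vessel walls. The αE chain, also called CD103, pairs with β7 and binds E-cadherin on epithelium. The α1 chain, also called CD49a, pairs with β1 to form a collagen receptor. CD103 and CD49a are known as surface markers of lymphocytes that stay in tissues, while α4 integrins and LFA-1 are known for their part in the exit of lymphocytes from blood.

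The values were normalised read counts as deposited, which summed to between 22363922 and 32037024 per library. The low values lay on equal steps, from which read numbers were recovered: liver library 3 held about 3870808 reads and the others 18487219 to 39604258. The steps were clear in 7 libraries; read numbers of liver library 3, where 70.7% of low values came within 0.1 of a whole read, and of spleen library 3 are approximate. Marker genes of T and iNKT1 cells (Cd3d, Cd3e, Cd3g, Zbtb16, Tbx21, Il2rb, Klrb1c, Cxcr3 and Il12rb2) were present in each of the 9 libraries and summed to 96120 to 161186. Markers of other cells stood out in few libraries. The 6 measured myeloid markers summed to 4321 in spleen library 1 and to at most 1189 elsewhere, and the B cell markers Ms4a1, Cd79a and Cd79b were listed at 0 in the 3 thymus libraries and at 514.0, 624.9 and 587.0 in spleen library 1. Ighm, also on the B cell list, stood at 3157 to 5350 in thymus and at 5257 to 9283 in the other 6 libraries. The 6 measured hepatocyte markers summed to 1390 to 1717 in liver and to at most 868.0 elsewhere. Libraries numbered 2 differed from the others in Xist in all 3 tissues, with at least 84543 against at most 16531.

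The chains that passed the test between tissues were alpha chains known as tissue-residence markers and 1 beta chain. Itgae fell by 6.75 on the log2 scale from thymus to liver and fell by 7.28 from thymus to spleen, and Itga1 fell by 2.52 from thymus to spleen. Itgb3 was 2.92 higher on the log2 scale in spleen than in thymus. The common beta chains Itgb7, Itgb1 and Itgb2 did not pass the test in any pair of tissues. A chain that did not pass may still differ. Itga4 did not pass, with a liver mean 6.9 times and a spleen mean 4.77 times the thymus mean and no overlap with thymus. These are fits of log2(value + 1) by limma-trend over 13309 genes, with p-values adjusted by the Benjamini-Hochberg method over all of them and a threshold of 0.05.

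In that test 1 of the 10 chains passed between liver and thymus, where 0.323% of all genes tested did. Of all genes, 0.203% were called higher and 0.12% lower in liver, and the chain called, Itgae, was lower. Between spleen and thymus 3 of the 10 passed, with 0.398% of all genes. There 1 chain was called higher, with 0.188% of all genes, and 2 lower, with 0.21%. Between liver and spleen 0 of the 10 passed by limma, edgeR or DESeq2, with 0.015% of all genes by limma; 1 of the 10, Itga1, had an unadjusted limma p under 0.05 there, with 3.03% of all genes. The same held for 5 chains between liver and thymus, with 11.6% of all genes, and for 7 between spleen and thymus, with 11.7%. On the recovered reads edgeR called 0, 2 and 0 of the 10 for liver against thymus, spleen against thymus and liver against spleen, with 0.165%, 0.278% and 0.015% of all genes. DESeq2 called 3, 4 and 0, with 3.96%, 4.51% and 0.176% of the genes it gave an adjusted p. The moderated F-test of any tissue difference passed for 2 of the 10, Itgae at an limma adjusted p of 0.0164 and Itga1 at 0.00882, with 0.346% of all genes. In that F-test the Itgae call was lost without thymus library 1, 2 or 3, while Itga1 passed with any library left out. Without thymus library 3, Itgb3 passed in place of Itgae. The thymus libraries serve both comparisons with thymus, so these are not independent. The 10 chains were also chosen with earlier results of these data known, so the shares beside the counts are no test of the set. The median log2 difference of the 10 chains was 0.25 between liver and thymus and 0.27 between spleen and thymus, beside 0.29 and 0.33 over all genes tested. Over all genes the values as deposited thus lay above thymus in both other tissues. Under the median of ratios those medians were 0.13 and 0.14, and in edgeR on the recovered reads −0.02 and 0.03. Of the 10 chains, Itgb1 was the only one whose sign against thymus turned with the scalings tried.

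**Figure D1:**
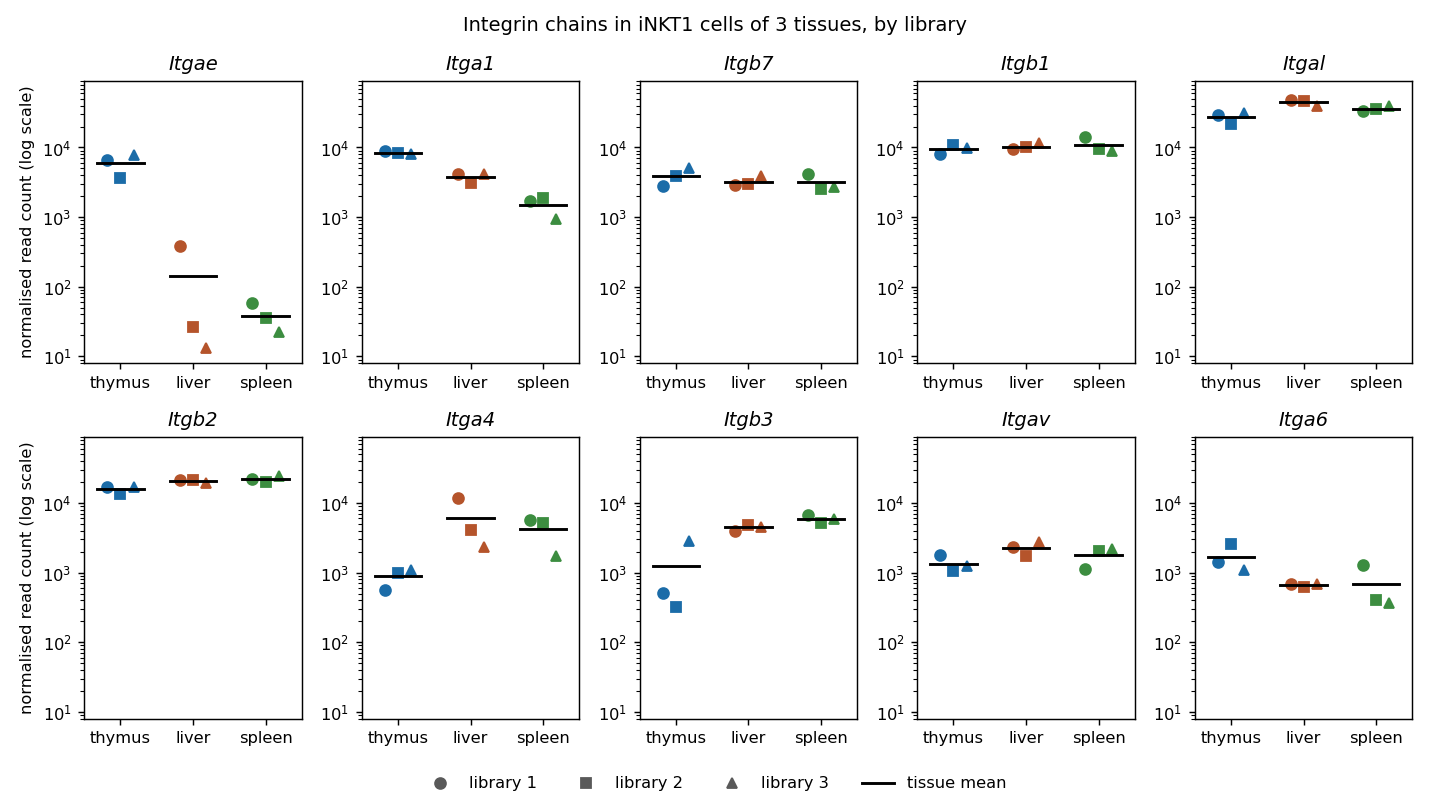
Normalised read counts of the 10 integrin chains on a log axis, with 1 point per library, 3 libraries per tissue, and a bar at the tissue mean. The 3 thymus points of Itgae lie at 3586 to 7786 and all 6 others at or under 381.9, while Itga1 steps down from thymus to liver to spleen.

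Levels can be set against each other only per length, here as the value divided by the kilobases of annotated exon. That length is the union over all annotated transcripts, at 18.6 kb for Itga1 and 13.98 kb for Itga4 against 2.77 kb for Itgb7. Where the transcripts in these cells are shorter than the union, the level per kb is too low, and the order depends on this. On that scale the 2 chains of LFA-1 led in each tissue. In thymus Itgb2 stood at 5229 ± 691 per kb (SD, n = 3) and Itgal at 4183 ± 738, with overlapping libraries, followed by Itgb1 at 2345 ± 361. Itgb7 at 1425 ± 428 and Itgae at 1307 ± 472 came next and overlapped, followed by Itga1 at 449 ± 22.6, which overlapped with the next. Itgb3 at 208 ± 238, Itga6 at 187 ± 86.3 and Itgav at 125 ± 35.5 did not differ beyond their spread, and Itga4 was lowest at 63.2 ± 20.2 per kb.

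The lower part of the order was another in the periphery. In liver the sequence was Itgal at 6791 ± 641 per kb, Itgb2 at 6764 ± 340, Itgb1 at 2530 ± 261, Itgb7 at 1159 ± 194 and Itgb3 at 754 ± 70.5, of which only the first pair overlapped. Itgb3 overlapped with Itga4 at 436 ± 368, Itga4 with Itgav at 211 ± 48.7 and Itgav with Itga1 at 204 ± 34.3, and Itga6 at 74.3 ± 4.1 overlapped with Itgae at 30.7 ± 45.7. In spleen Itgb2 at 7280 ± 768 per kb was above Itgal at 5522 ± 501 and Itgb1 at 2653 ± 741 without overlap, while Itgb7 at 1141 ± 331 overlapped with Itgb3 at 1010 ± 141. Itga4 at 302 ± 156 and Itgav at 166 ± 52.9 overlapped, as did Itga1 at 81.4 ± 26.8 and Itga6 at 76.5 ± 58.2. Itgae was lowest in spleen, at 8.38 ± 3.98 per kb, so that it moved from the fifth place in thymus to the last in both other tissues.

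**Figure D2:**
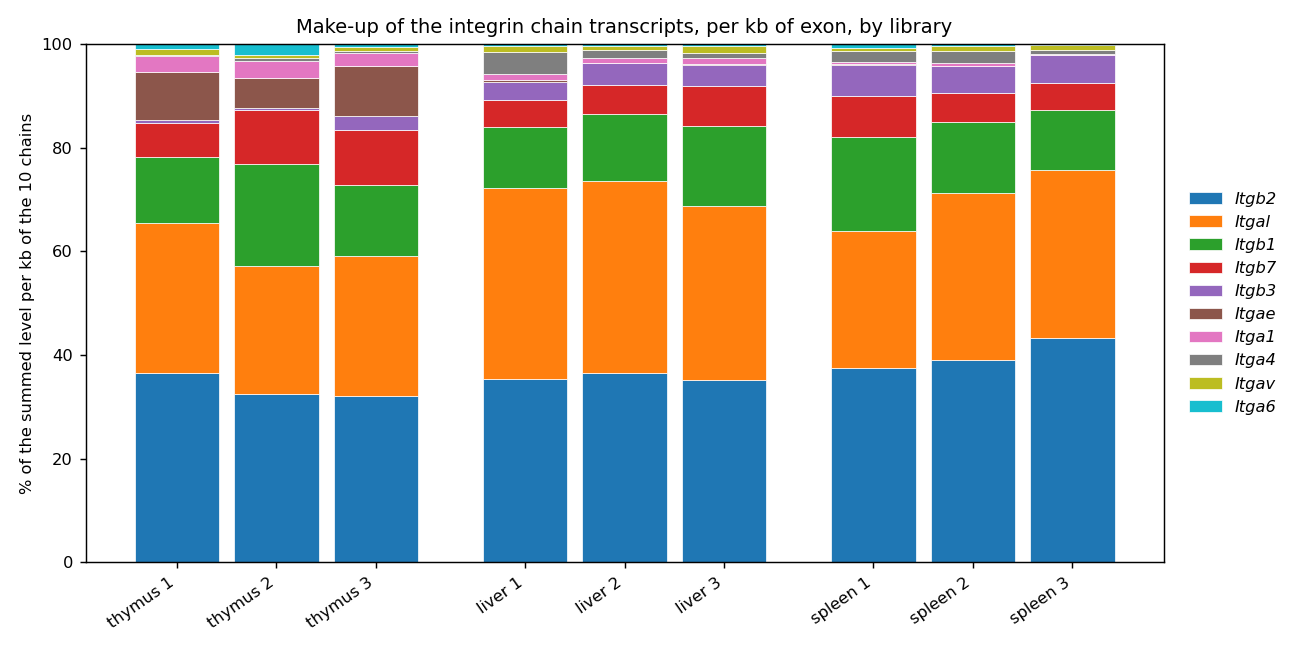
Share of each chain in the summed level per kb of exon of the 10 chains, as stacked bars to 100%, 1 bar per library. Itgae makes up 5.75% to 9.69% of the sum in the thymus libraries and at most 0.424% in the other 6, and Itgal with Itgb2 make up the greater part in each bar.

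RefSeq promoter entries were matched for 5 of the 10 chains (Itga1, Itgb7, Itgb1, Itga4 and Itgav). Among these Itga1 had its highest values in thymus and Itga4 its lowest. Their 250 bases before the annotated start are shown because the 2 genes lie at opposite ends in that respect, on GRCm38.p6 and 5′ to 3′ along each gene's strand. Itga1 lies on the minus strand, with this window at chr13:115101965-115102214, and Itga4 on the plus strand, with its window at chr2:79255176-79255425. Capitals mark matches to the letters searched, given after the sequences.
Itga1: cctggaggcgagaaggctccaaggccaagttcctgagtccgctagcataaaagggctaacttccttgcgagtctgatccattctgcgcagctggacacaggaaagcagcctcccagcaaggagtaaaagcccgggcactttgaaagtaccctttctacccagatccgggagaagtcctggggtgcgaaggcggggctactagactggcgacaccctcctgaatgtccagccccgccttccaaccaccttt
Itga4: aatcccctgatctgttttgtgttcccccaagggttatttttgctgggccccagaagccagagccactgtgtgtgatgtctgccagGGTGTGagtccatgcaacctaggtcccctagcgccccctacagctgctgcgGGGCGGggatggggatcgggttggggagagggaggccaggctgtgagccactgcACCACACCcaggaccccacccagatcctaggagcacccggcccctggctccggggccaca
The letters searched on both strands were GGTGTG for T-box factors, TGTGGT for RUNX factors, CCGGAA for ETS factors, GGGCGG for SP and KLF factors and GTCTAGAC for SMAD factors. The Itga1 window, with 57.6% G and C, held none of these letters, which says nothing about the factors themselves. The Itga4 window, with 64.0% G and C, held the T-box letters at bases −165 to −160 before the start and, on the other strand, at −58 to −53. The second match overlaps the RUNX letters at −60 to −55 on the other strand, and the SP and KLF letters stood at −114 to −109. Of 32851 mouse promoter windows of this length, 16.3% held the T-box letters, 14.0% the RUNX letters, 12% the ETS letters, 32.7% the SP and KLF letters and 0.2% the SMAD letters. A match is a description of letters and no sign of binding.

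Itgae, which encodes αE (CD103), is carried on chr11:73090583-73147446 of GRCm38 on the plus strand, with 31 exons in the union of its transcripts. Its normalised read counts were 6590, 3586 and 7786 in thymus libraries 1 to 3. They were 381.9, 26.6 and 13.1 in liver and 58.1, 35 and 22.1 in spleen. The thymus libraries did not overlap with any other library, and liver library 1 stood above the other 5 peripheral libraries. The thymus mean of 5987 ± 2164 (SD, n = 3) was 42.6 times the liver mean of 141 ± 209 and 156 times the spleen mean of 38.4 ± 18.2. In bulk RNA a lower share of cells with the transcript and less transcript per cell cannot be told apart.

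On the log2(value + 1) scale Itgae fell by 6.75 from thymus to liver (SE 1.21, limma adjusted p = 0.0261, n = 3 per tissue). From thymus to spleen it fell by 7.28 (SE 1.21, limma adjusted p = 0.0146). The liver call was lost without thymus library 1, 2 or 3, or without liver library 2 or 3, with limma adjusted p-values of 0.0665, 0.0523, 0.0554, 0.128 and 0.158. In edgeR it stood at an adjusted p of 0.0557. The spleen call was lost without spleen library 1, 2 or 3 (limma adjusted p of 0.0599, 0.0655 and 0.079). The log2 difference stayed between −8.17 and −5.35 under every alternative for liver and between −7.62 and −6.95 for spleen. Between liver and spleen the log2 difference was 0.53, with a 95% interval from −2.05 to 3.12, and without liver library 1 it was −0.90.

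The peripheral values of Itgae rest on few reads: 439, 31 and 2 recovered reads in liver and 78, 51 and 37 in spleen, against 5878, 3100 and 6212 in thymus; those of liver library 3 and spleen library 3 are approximate. Liver library 1 also held the natural killer cell genes Ncr1 at 615.6 and Eomes at 395.4, where the other 8 libraries had at most 131.4 and 23.9; these cells' part in the Itgae value there was not tested. The 4 natural killer cell markers summed to 765.6 to 1418 in thymus, 161.3 to 1388 in liver and 59.1 to 153.9 in spleen, and Ncr1 was listed at 0 in each thymus library. Most of the thymus sum was Klra4, at 556.2 to 1038, and Klra8, at 111.6 to 380.0. Both were higher in each thymus library than in the other 6, unlike Ncr1 and Eomes, so the sum mixes unlike patterns. Haspin, which lies within an intron of Itgae on the opposite strand and shares no exon with it, stood at 762.3, 2558 and 2561 in thymus, 113.9, 95.2 and 491.5 in liver and 53.6, 188.4 and 166.6 in spleen. It was thus also higher in each thymus library than in the other 6. Whether counting used strand is not given in the sources used here.

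The partner chain Itgb7 (chr15:102215995-102231944, minus strand) did not follow Itgae. Its values were 2763, 3947 and 5133 in thymus, 2845, 2957 and 3828 in liver and 4215, 2544 and 2725 in spleen, and the 3 tissues overlapped. The log2 difference was −0.27 between liver and thymus, with a 95% interval from −1.02 to 0.49, and −0.31 between spleen and thymus, with an interval from −1.07 to 0.45. The ratio of 2 chains within a library does not depend on scaling between libraries. The log2 ratio of Itgae to Itgb7 was 1.25, −0.14 and 0.60 in thymus, −2.89, −6.75 and −8.09 in liver and −6.16, −6.14 and −6.88 in spleen. In an exact one-sided permutation test of the tissue F statistic over the 280 ways to divide the libraries, its p was 0.0321, and 0.045 after adjustment over the 7 ratios examined. This call held without liver library 1 or 3 and was lost without any one of the other 7 libraries, at adjusted permutation p-values of 0.055 to 0.119. It was also lost when libraries were permuted within replicate numbers only, at an adjusted permutation p of 0.13. The smallest p of the test over the 280 divisions is 0.00357.

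E-cadherin, the ligand of CD103, is encoded by Cdh1, which belongs to the list of integrin ligands and is named here after its values were seen. It stood at 3112, 4998 and 707.0 in thymus, at 0.0, 113.3 and 0.9 in liver and at 254.2, 0.0 and 1.1 in spleen, so that the thymus libraries did not overlap with the others. It did not pass the test, with an limma adjusted p of 0.177 between liver and thymus and 0.184 between spleen and thymus. Of the thymic epithelial markers Epcam, Krt5, Krt8, Foxn1 and Cdh1, only Epcam and Cdh1 were in the table, and Epcam was listed at 0 in each thymus library.

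The 5 named genes whose pattern was most like that of Itgae over the 9 libraries, by Pearson correlation of log2(value + 1) among 10792 genes, were Atp11b (r = 0.972), Ugcg (0.957), Klrd1 (0.954), Fcer1g (0.954) and Klra5 (0.950). These points share libraries and depth, and the correlations are a description. Klrd1 encodes CD94, a partner of NKG2 receptors; it stood at 17224, 13285 and 20458 in thymus and at 2173 to 4044 in the other 6 libraries. Fcer1g, an adaptor chain of Fc and natural killer cell receptors, stood at 3191 to 6967 in thymus and 189.0 to 1960 elsewhere. Klra5 is 1 of several near-identical Ly49 genes, so its counts are uncertain. Among the other chains Itga1 was the most like Itgae, with r = 0.817.

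Itga1 encodes α1 (CD49a) and lies at chr13:114953096-115101964 on the minus strand, with 30 exons. Its values were 8799, 8298 and 7964 in thymus, 4178, 3052 and 4136 in liver and 1694, 1898 and 951.6 in spleen. No 2 tissues overlapped, with thymus highest, liver between and spleen lowest. The thymus mean of 8354 ± 420 (SD, n = 3) was 2.2 times the liver mean of 3789 ± 639 and 5.52 times the spleen mean of 1514 ± 498. The spread within thymus was 5.03% of the mean, the smallest of the 10 chains there.

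The fall of 2.52 from thymus to spleen passed the test (SE 0.34, limma adjusted p = 0.00334) and passed under each of the 21 alternatives, with adjusted p-values up to 0.0289. The difference of −1.15 between liver and thymus had a 95% interval from −1.89 to −0.42 and did not pass (limma adjusted p = 0.213), while DESeq2 on the recovered reads called it at an adjusted p of 0.0306. Between liver and spleen the log2 difference was 1.37 (95% interval 0.64 to 2.1, limma adjusted p = 1.0), and DESeq2 gave an adjusted p of 0.0551. The values of liver lay above those of spleen in 3 of 3 libraries. Of all genes tested, 5.97% had 3 liver values above the 3 of spleen.

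Its partner Itgb1 (β1, chr8:128685654-128733200, plus strand) stood at 8002, 10924 and 9790 in thymus, 9354, 10150 and 11465 in liver and 14296, 9416 and 8767 in spleen, with overlap of all 3 tissues. The log2 differences of 0.12 for liver and 0.15 for spleen against thymus had 95% intervals from −0.42 to 0.65 and from −0.38 to 0.69, and both turned negative under the median of ratios. The log2 ratio of Itga1 to Itgb1 was 0.14, −0.40 and −0.30 in thymus, −1.16, −1.73 and −1.47 in liver and −3.08, −2.31 and −3.20 in spleen. The 3 tissues did not overlap. The exact permutation p of 0.00357 is the smallest this design can give, and was 0.025 after adjustment. The ratio also passed with each of the 9 libraries left out in turn. It did not pass when libraries were permuted within replicate numbers only, at an adjusted permutation p of 0.13.

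The genes most like Itga1 by the same measure were Klre1 (r = 0.985), Dgkd (0.953), Map1lc3b (0.945), Ahnak (0.942) and Rfx3 (0.942). Klre1, a lectin-like receptor of natural killer cells, stood at 2753, 3956 and 3170 in thymus, 1494, 1281 and 1587 in liver and 597.9, 685.2 and 435.9 in spleen. It followed the same order of tissues with no overlap. Of the 3 genes that overlap Itga1 in the annotation, 1 shares 3.68% of its exon bases, and Pelo, which lies in an intron, was at most 394.2 in any library.

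Itga4 encodes α4 of VLA-4 and α4β7, and lies at chr2:79255426-79333123 on the plus strand. It ran the other way. Its values were 566.2, 980.6 and 1104 in thymus, 11954, 4032 and 2303 in liver and 5705, 5233 and 1710 in spleen. Each of the 6 peripheral libraries was above each thymus library, and the peripheral libraries differed among themselves by several fold. The liver mean of 6096 ± 5146 (SD, n = 3) was 6.9 times the thymus mean of 884 ± 282, and the spleen mean of 4216 ± 2183 was 4.77 times it. Without liver library 1 the log2 difference for liver was 1.84 in place of 2.5.

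The log2 differences of 2.5 for liver (95% interval 1.24 to 3.75, limma adjusted p = 0.111) and 2.13 for spleen (0.87 to 3.38, limma adjusted p = 0.173) did not pass. DESeq2 on the recovered reads called both, at adjusted p-values of 0.000671 and 0.0112. Within libraries the log2 ratio of Itga4 to Itgb7 was −2.29, −2.01 and −2.22 in thymus, 2.07, 0.45 and −0.73 in liver and 0.44, 1.04 and −0.67 in spleen, and passed (exact permutation p = 0.0321, adjusted 0.045). That call held without liver library 3 and was lost without any one of the other 8 libraries, at adjusted permutation p-values of 0.055 to 0.14. It was also lost when libraries were permuted within replicate numbers only. The ratio to Itgb1 was on average 2.38 higher in liver and 1.97 higher in spleen than in thymus, in log2 units, and did not pass (exact permutation p = 0.0536, adjusted 0.0625).

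Cerkl, a gene on the opposite strand, shares 8.04% of the exon bases of Itga4; it stood at 0.0, 916.5 and 0.0 in thymus and at 7.1 to 354.2 elsewhere. The ligands of α4 integrins were little measured: Madcam1 was not in the table, and Vcam1 stood at 2077 in spleen library 1 and at most 22.3 in the other 8. That library also had the highest sum of myeloid markers, with Csf1r at 1297, and held Itga9 at 1491. Liver library 1, which had the highest Itga4, held Cd68 at 1171 and Ms4a1 at 422.9. The part of other cells in the Itga4 values was not tested.

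Itga6, the laminin receptor chain α6, lies at chr2:71745616-71858416 on the plus strand. It stood at 1418, 2571 and 1087 in thymus, 693.3, 628.2 and 691.3 in liver and 1296, 402.4 and 371.1 in spleen. Liver was below thymus with no overlap, while spleen library 1 lay within the range of thymus. The log2 differences from thymus were −1.24 for liver (95% interval −2.57 to 0.09, limma adjusted p = 0.457) and −1.45 for spleen (−2.78 to −0.12, limma adjusted p = 0.376), and neither passed. The log2 ratio of Itga6 to Itgb1 averaged −2.58 ± 0.55 in thymus, −3.94 ± 0.16 in liver and −4.19 ± 0.63 in spleen (SD, n = 3), and passed (exact permutation p = 0.0214, adjusted 0.045). The call held without liver library 3 or spleen library 1 and was lost without any one of the other 7 libraries, at adjusted permutation p-values of 0.05 to 0.11. It was also lost when libraries were permuted within replicate numbers only.

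**Figure D3:**
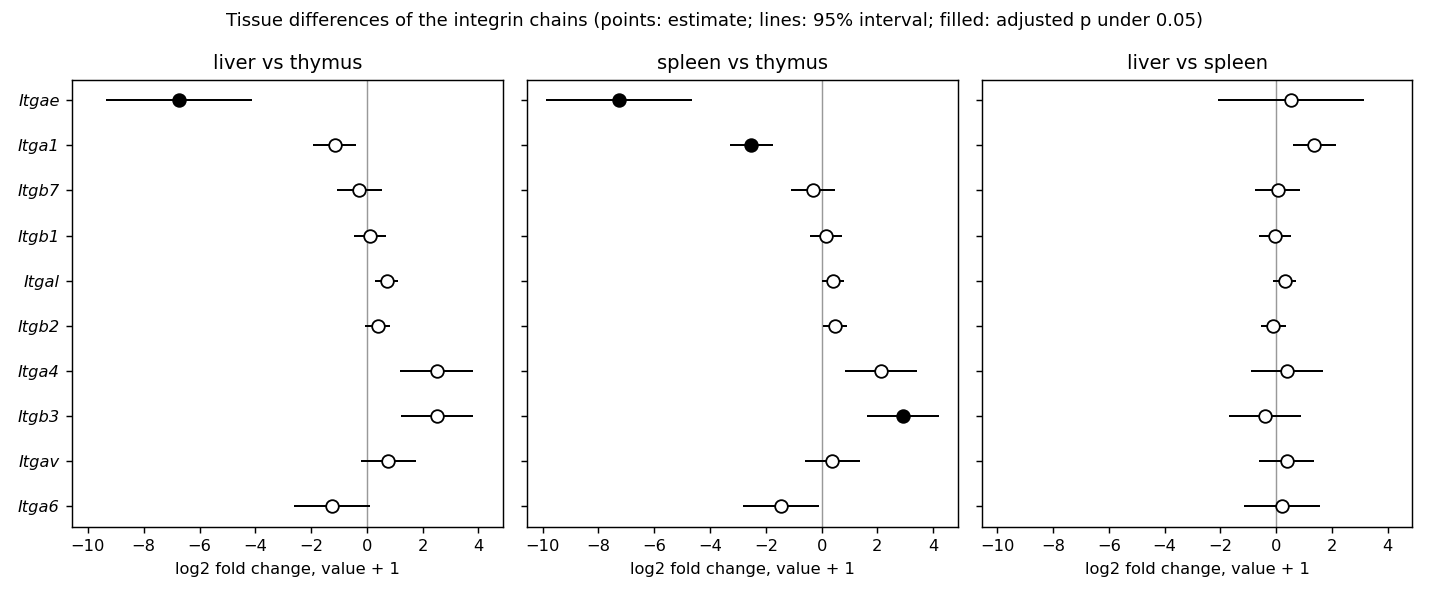
Log2 fold changes of the 10 chains in 3 comparisons, on the log2(value + 1) scale, with 95% intervals from the limma fit; filled points passed the test. The interval of Itgae lies below −4 in both comparisons with thymus, and those of Itgb7 and Itgb1 span 0 in each comparison.

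The chains of LFA-1 had the highest levels per kb in each tissue. Itgal (αL, chr7:127296260-127335138, plus strand) stood at 29315, 21981 and 31142 in thymus, 47573, 46469 and 39791 in liver and 33455, 35481 and 39888 in spleen. Itgb2 (β2, chr10:77530252-77565708, plus strand) stood at 17178, 13524 and 17179 in thymus, 21233, 21252 and 19448 in liver and 22058, 19960 and 24638 in spleen. For both chains each peripheral library was above each thymus library, and liver and spleen overlapped.

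Itgal was 1.62 times as high in the liver mean and 1.32 times as high in the spleen mean as in thymus, and Itgb2 1.29 and 1.39 times. None passed the test, with limma adjusted p-values of 0.129 and 0.361 for Itgal and 0.451 and 0.332 for Itgb2. Relative to the median of all genes tested, the log2 differences were 0.42 and 0.09 for Itgal and 0.08 and 0.16 for Itgb2, in liver and spleen. The log2 ratio of Itgal to Itgb2 was 0.77, 0.70 and 0.86 in thymus, 1.16, 1.13 and 1.03 in liver and 0.60, 0.83 and 0.70 in spleen. The 3 liver libraries were above the other 6, by 0.33 on average against thymus and 0.40 against spleen, and the ratio passed (exact permutation p = 0.0143, adjusted 0.045). This call held without liver library 1 or 3 or spleen library 2, and was lost without any one of the other 6 libraries, at adjusted permutation p-values of 0.05 to 0.0625. It was also lost when libraries were permuted within replicate numbers only.

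**Figure D4:**
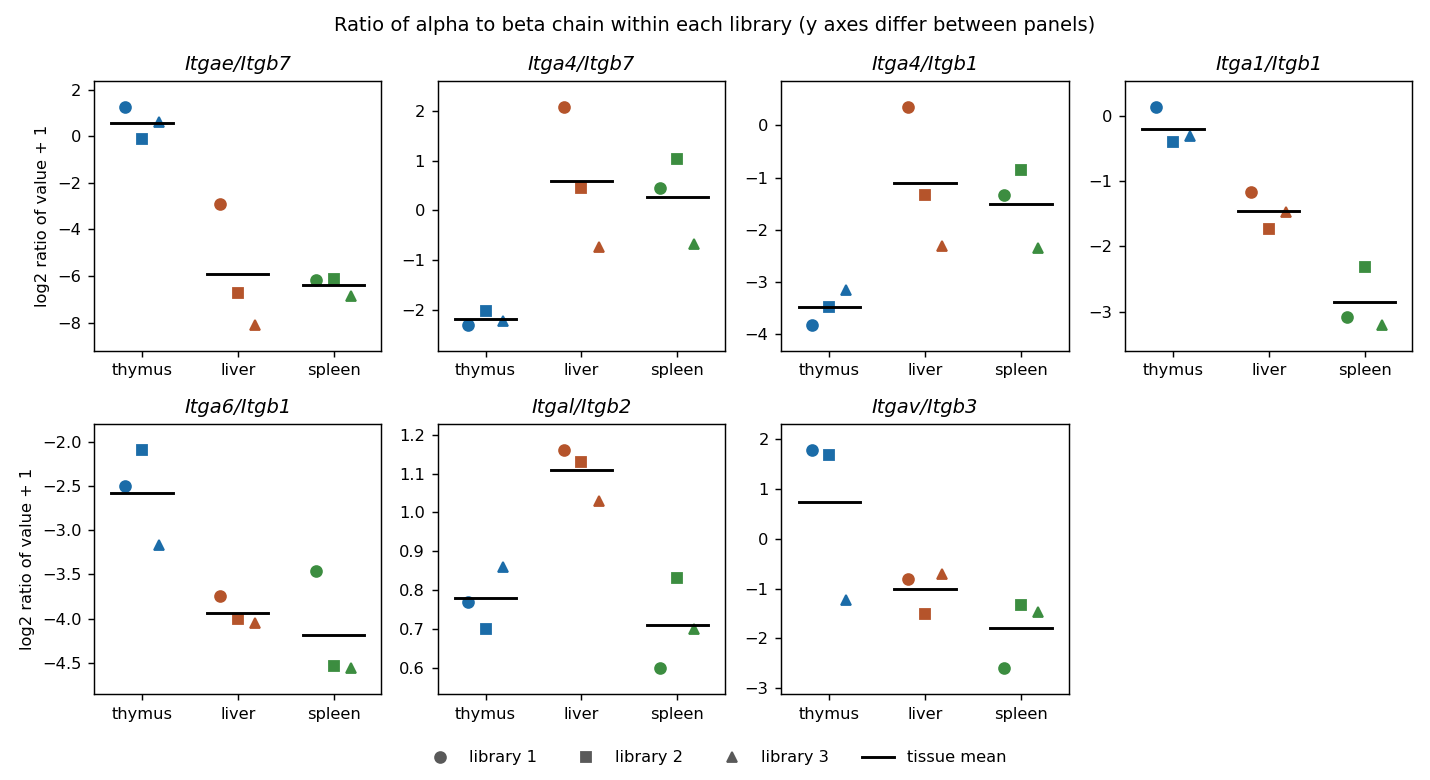
Log2 ratio of an alpha to a beta chain within each library, for 7 pairs known to form heterodimers, with 1 point per library and a bar at the tissue mean; the y axes differ between panels. Itga1/Itgb1 forms 3 separate levels, Itgal/Itgb2 is highest in liver at 1.03 to 1.16, and for Itgav/Itgb3 thymus library 3 sits at −1.22, apart from the other 2 thymus libraries.

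Itgb3 encodes β3, best known from platelets and, with αv, as the vitronectin receptor, and lies at chr11:104608000-104670476 on the plus strand. Its values were 516.8, 323.8 and 2849 in thymus, 4014, 4842 and 4494 in liver and 6793, 5131 and 5955 in spleen. Thymus library 3 lay between the other 2 thymus libraries and the peripheral ones, and the 3 tissues did not overlap. The spleen mean of 5960 ± 831 (SD, n = 3) was 4.85 times the thymus mean of 1230 ± 1406, and the liver mean of 4450 ± 416 was 3.62 times it.

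The difference of 2.92 between spleen and thymus passed (SE 0.59, limma adjusted p = 0.0434), and that of 2.5 between liver and thymus did not (limma adjusted p = 0.111). Whether the 2 differ is the comparison of liver with spleen, at −0.42 with a 95% interval from −1.67 to 0.84. The spleen call is close to the threshold: it passed in 7 of 21 alternatives, and in 1 of the 9 that left out a library. Without thymus library 3 the log2 differences were 3.85 for spleen (limma adjusted p = 0.000394) and 3.44 for liver (0.0012). With another library left out the limma adjusted p for spleen was 0.0759 to 0.21.

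Platelet markers were near 0 beside Itgb3. Pf4 was listed at 32.2 in liver library 2 and at most 0.4 in the other 8, Itga2b, the platelet partner of β3, was at most 12.3, and the 4 measured platelet markers summed to between 0.1 and 131.5 per library. Gp9, Gp1bb, Gp6, Treml1 and Clec1b were not in the table. Thymus library 3 also stood apart from the other thymus libraries in Itga2 at 1024 against 4.5 and 81.0, in Itgad at 888.8 against 0.0 and 9.3, and in Itgax at 443.8 against 0.0 and 5.8; these were chosen after their values were seen. Its 5 measured markers of immature thymocytes summed to 788.4, against 81.1 to 311.6 in the other 8 libraries. The part of such cells in the Itgb3 value was not tested.

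The other partner Itgav (αv, chr2:83724397-83806916, plus strand) stood at 1775, 1042 and 1225 in thymus, 2308, 1716 and 2761 in liver and 1126, 2060 and 2155 in spleen, with overlap of the tissues. Its log2 differences from thymus were 0.76 for liver (95% interval −0.19 to 1.71) and 0.38 for spleen (−0.57 to 1.33), and neither passed. The log2 ratio of Itgav to Itgb3 was 1.78, 1.68 and −1.22 in thymus, −0.80, −1.50 and −0.70 in liver and −2.59, −1.32 and −1.47 in spleen. It did not pass (exact permutation p = 0.0821, adjusted 0.0821); without thymus library 3 it did, at an adjusted p of 0.0375. The gene Gm13684 shares 5.9% of the exon bases of Itgav on the opposite strand and was at most 97.5 in any library.

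By non-overlap alone, 4 chains were higher and 3 lower in liver than in thymus, where 9.61% and 5.73% of all genes tested were, or 15.3% in either direction. The 4 were Itgal, Itgb2, Itga4 and Itgb3, and the 3 were Itgae, Itga1 and Itga6. In spleen the same 4 were higher and Itgae and Itga1 lower than in thymus, where 9.29% and 6.03% of all genes were, again 15.3% in either direction. Between liver and spleen Itga1 was higher and Itgb3 lower in liver, where 5.97% and 6.77% of all genes were, or 12.7% in either direction.

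Other genes of integrin biology were taken from fixed lists. Of 16 further integrin chains 12 were in the table and 11 tested, and 0 passed limma's test in any comparison. For liver against thymus, spleen against thymus and liver against spleen, 3, 2 and 1 had an unadjusted limma p under 0.05. Of all genes tested, 11.6%, 11.7% and 3.03% did. The median log2 differences of the 11 chains from thymus were 1.51 in liver and 2.63 in spleen, beside 0.29 and 0.33 over all genes. The medians of the chains were the same with 2 genes that had no recovered read in thymus set to their bound of 3 reads over the tissue. A median moves only when a gene crosses it, so this does not show that the medians are stable. edgeR called 0 of the 11, and DESeq2 called 1 in each comparison with thymus and 0 between liver and spleen. Of all genes with an adjusted p in DESeq2, 3.96%, 4.51% and 0.176% were called. Of the 11 tested, 10 had a positive log2 difference from thymus in liver and 10 in spleen, with Itgad the exception in liver and Itga3 in spleen. This count and the medians of these chains are no result about the chains. Itga5 and Itgb4 had no recovered read in thymus and passed the filter only through the other tissues. Itga11 and Itgb5 had at most 1 read in a thymus library. The medians over all genes were positive too, and the share of all genes with a positive difference was not counted. Itga5, the fibronectin receptor chain, had no recovered read in any thymus library and stood at 74.9, 42.1 and 125.3 in liver and 54.5, 101.5 and 30.0 in spleen. Itga2, the other common collagen receptor chain, stood at 4.5, 81.0 and 1024 in thymus, 1844, 523.5 and 600.7 in liver and 257.1, 827.6 and 517.4 in spleen, and the tissues overlapped. Itga5, Itga2, Itgb4, Itga11 and Itgb5 are named after their values were seen.

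Integrins are switched on from inside the cell by talin, kindlin and the small GTPase Rap1. Of 21 such activators and regulators 18 were tested, and 0 passed limma's test, while 6, 5 and 1 had an unadjusted limma p under 0.05 in the same order of comparisons, with 11.6%, 11.7% and 3.03% of all genes. edgeR called 0, and DESeq2 2, 2 and 0, with 3.96%, 4.51% and 0.176% of the genes it gave an adjusted p. The activators' median log2 differences from thymus were 0.09 in liver and 0.01 in spleen, beside 0.29 and 0.33 over all genes. Among those named after their values were seen, Rasgrp2, an activator of Rap1, stood at 4273, 3871 and 581.7 in thymus and at 304.0 to 776.7 in the other 6 libraries, so that thymus library 3 lay within the range of the periphery. Flna, the filamin that binds beta chain tails, stood at 15532, 7311 and 9293 in thymus and 3930 to 5382 elsewhere, with limma adjusted p-values of 0.189 and 0.118.

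The adhesion complex links beta chains to actin and to kinases. Of 25 listed genes 21 were tested, and 1, Nedd9, was called by limma, higher in liver than in thymus, where 0.203% of all genes were. In that comparison 4 had an unadjusted limma p under 0.05, with 11.6% of all genes. edgeR and DESeq2 called 1 each, with 0.165% of all genes in edgeR and 3.96% of those with an adjusted p in DESeq2. Nedd9, a scaffold protein of the CAS family that is phosphorylated after integrin binding, stood at 4857, 5312 and 4604 in thymus, 11121, 12304 and 12785 in liver and 8231, 8208 and 7770 in spleen. The 3 tissues did not overlap. Its log2 difference was 1.29 between liver and thymus (SE 0.23, limma adjusted p = 0.0252) and 0.71 between spleen and thymus (limma adjusted p = 0.243). The list's median log2 differences from thymus were −0.12 in liver and −0.46 in spleen, beside 0.29 and 0.33 over all genes. Outside that call 0 passed limma's test. Spleen against thymus and liver against spleen had 5 and 1 with an unadjusted limma p under 0.05, with 11.7% and 3.03% of all genes. edgeR and DESeq2 called 0 in both.

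Of 16 integrin ligands 8 were in the table and 7 tested. Among these 0 passed limma's test in any comparison, and 0 were called by edgeR or DESeq2. An unadjusted limma p under 0.05 was reached by 3, 2 and 0, with 11.6%, 11.7% and 3.03% of all genes. The ligands' median log2 differences from thymus were 1.30 in liver and 1.28 in spleen, beside 0.29 and 0.33 over all genes. These medians are no result about the ligands. Vcam1 had no recovered read in thymus and passed the filter only through the other tissues, and Col1a1 had at most 1 read in a thymus library. Icam1, the ligand of LFA-1, stood at 788.1, 226.7 and 2064 in thymus, 1838, 1827 and 1641 in liver and 1685, 1976 and 1586 in spleen. The tissues overlapped through thymus library 3. Of 7 proteins that associate with integrins in the membrane, each was tested and 0 passed limma's test. Among them 1, 2 and 0 had an unadjusted limma p under 0.05, with 11.6%, 11.7% and 3.03% of all genes. edgeR called 0, and DESeq2 called 1 between spleen and thymus, with 4.51% of the genes it gave an adjusted p. The median log2 differences of the 7 from thymus were 1.08 in liver and 1.28 in spleen, beside 0.29 and 0.33 over all genes. Cd47, the integrin-associated protein, stood at 4684, 11337 and 14162 in thymus and at 17538 to 21088 in the other 6 libraries, with limma adjusted p-values of 0.200 and 0.195. Cd82, a tetraspanin, stood at 1153 to 1577 in thymus, 2199 to 2793 in liver and 3143 to 3681 in spleen, with no overlap and limma adjusted p-values of 0.437 and 0.184 against thymus. Icam1, Vcam1, Col1a1, Cd47 and Cd82 are named after their values were seen.

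**Figure D5:**
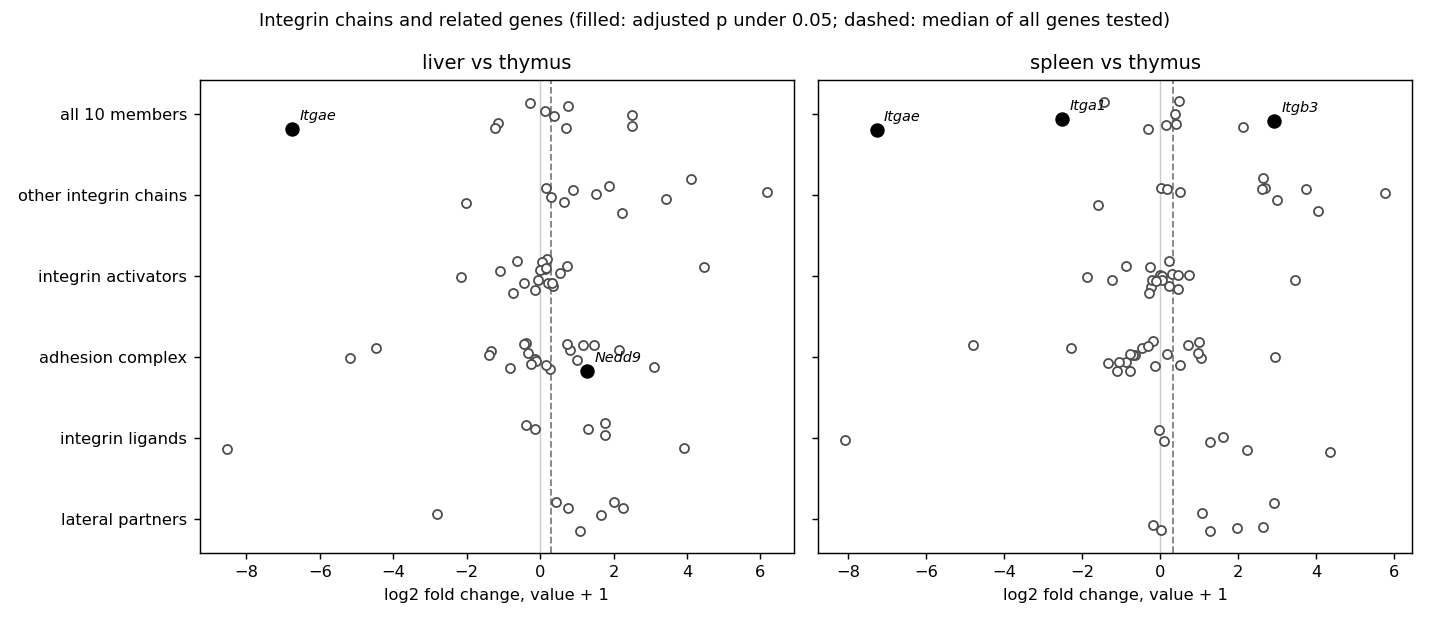
Log2 fold changes against thymus of the 10 chains and of 5 lists of related genes, on the log2(value + 1) scale, 1 point per gene tested, spread vertically at random. Filled points passed the test, and the dashed line is the median of all genes tested, at 0.29 for liver and 0.33 for spleen; outside the 10 chains only Nedd9 is filled.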

How the data were processed

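RNA of iNKT1 cells from 3 tissues, 3 libraries each, was sequenced for 76 cycles on a NextSeq500 from libraries made with the Nugen Ovation Ultralow kit, per the labels' protocols. Trimmomatic 0.33, TopHat2 2.1.0, HTSeq 0.6.1, edgeR and the mouse build mm10 are named in the submitters' processing notes, with no order or settings. The authors deposited 1 table of normalised read counts (a signal that is never negative) for 14004 genes; how they were scaled is not given in the sources used here. The column of thymus replicate 2 has a prefix that no label explains. Symbols were matched by Ensembl ID, for 13359 genes, and exons and coordinates taken from GENCODE M21 on GRCm38, the assembly that mm10 names; promoters are from RefSeq.

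Genes that reached a value of 1 in 3 or more libraries were fitted on log2(value + 1) with limma 3.58.1 (trend, 9 libraries, no replicate block), R 4.3.3. The log2 scale understates the change of low genes. Of 15739 low values of 1 to 20 reads, 92.9% came out within 0.1 of a whole read (70.7% in liver library 3), and edgeR 4.0.16 and DESeq2 1.42.0 were run on recovered reads as alternatives. Intervals are 95%. All 10 members were named whatever their values; of further lists, at most 4 genes past the threshold per comparison, plus genes said to be chosen after their values were seen; and the 5 genes most correlated with Itgae and with Itga1 among genes with a mean of at least 10, leaving out unnamed gene models and receptor segments. Members and lists were chosen with earlier results of these data known. Scripts were tested on simulated data.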

Additional observations from a re-analysis of the deposited data

How the results depend on the processing

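Each fold change was recomputed under 21 alternatives (scaling, filter, pseudocount, 2 tissues only, replicate block, a term for libraries numbered 2, array weights, edgeR, DESeq2, and each of 9 libraries left out). For liver against thymus, edgeR called 0 chains and DESeq2 3, and 0 to 1 were called with a library left out. The 1 called without thymus library 3 was Itgb3, higher in liver, with the Itgae call lost. For spleen against thymus 1 to 3 were called with a library left out, and for any tissue difference 1 to 2. Itga1 was among them each time in both, while Itgae was not. Of the 7 ratios 5 passed, and 1 to 6 passed with a library left out. When libraries were permuted within replicate numbers only (replicate block), 0 passed, and Itga1/Itgb1 and the other 4 had an adjusted permutation p of 0.13. That scheme allows fewer arrangements than the 280 of the main test. A ratio at its smallest p there could not pass by itself after adjustment over the 7. The block changed no other call. The main fits did not treat libraries as paired, since no label says what the replicate numbers share. Same-numbered libraries correlated at −0.001 to 0.089 across tissues and 0 of 9 pairs were over 0.1, against −0.087 to 0.048 for differently numbered ones. Still, 4 of 9 libraries correlated best with their own number in both other tissues. Libraries numbered 2 shared Xist values of at least 84543, against at most 16531 in the others. Correlations over all genes cannot show that same-numbered libraries are unrelated. Itgae kept its direction against thymus in each alternative, and Itga1 did in all 3 comparisons.

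Chains that did not pass reversed as follows, and the cause was not tested. Under the median of ratios Itgb1 was at −0.06 for liver and −0.05 for spleen against thymus. Between liver and spleen, array weights gave −0.10 for Itgae and 0.09 for Itgb1, and edgeR and DESeq2 gave −0.05 and −0.03 for Itga6. With a library left out, the range was −0.01 to 0.22 for Itgb1 in liver and −0.06 to 0.29 in spleen against thymus; between liver and spleen it was −0.9 to 1.49 for Itgae, −0.09 to 0.27 for Itgb7, −0.17 to 0.18 for Itgb1, −0.28 to 0.9 for Itga4 and −0.11 to 0.79 for Itga6. Liver library 3, with the fewest reads, limits the precision of low values there.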
